A study of Homo sapiens with 8 samples.

Results

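The SMAD family is the set of intracellular proteins that carry signals of the transforming growth factor beta (TGF-beta) superfamily from the cell surface to the nucleus. Its 8 human genes, SMAD1 to SMAD7 and SMAD9, were taken by gene symbol in the probe annotation. Of the 8, 7 had a probe among the deposited values. Each of these 7 genes had 1 probe there, which made 7 of the 14479 probes and 7 of the 9535 named genes with deposited values. No probe with deposited values was annotated to SMAD1, and its transcript was not analysed here. Whether the arrays carried further probes is not known from these values.

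The data came from HEK293T cells, an established line of human embryonic kidney origin that carries adenoviral sequence and the SV40 large T antigen. The cells received 200 pmol of a biotin-bearing synthetic duplex of either miR-23b or miR-27a and were collected 24 h afterwards. In the miR-23b pull-down and the miR-27a pull-down, RNA held with the duplex was recovered on streptavidin beads, and the miR-23b input and the miR-27a input were RNA of cells given the same duplex that had not gone through the beads. Each of the 4 groups had 2 arrays, 8 in all, hybridised in 1 colour on Illumina bead arrays. Both inputs thus came from cells that carried a transfected duplex, and no pull-down of a non-targeting duplex was analysed here, so that a transcript held by the miRNA and a transcript recovered on the beads in general cannot be told apart. The labels do not say whether replicates 1 and 2 were separate cultures, and p-values therefore reflect no more than array-to-array spread, which may be technical.

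Ligands of the TGF-beta superfamily bring together pairs of type I and type II receptor kinases, and the type I receptor phosphorylates receptor-regulated SMADs. SMAD2 and SMAD3 respond mainly to TGF-beta, activin and nodal, whereas SMAD1, SMAD5 and SMAD9 respond mainly to bone morphogenetic proteins. The phosphorylated proteins join the common partner SMAD4 and regulate transcription in the nucleus, and the inhibitory members SMAD6 and SMAD7 block the receptors and recruit ubiquitin ligases. A miRNA loaded into an Argonaute protein usually pairs with its targets through the seed, bases 2 to 8 from its 5′ end, and holds a target transcript long enough for it to be recovered with a tagged miRNA. In fetal mouse liver cells, Smad3, Smad4 and Smad5 have been reported as targets of the miR-23b cluster, which also encodes miR-27b.

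The mature miRNAs are shown because the seeds of the transfected pair are so alike, and because each has a close relative in the other genomic cluster. Sequences and positions are those of RefSeq on GRCh38.p14, 5′ to 3′, with the seed in capitals.
hsa-miR-23b-3p: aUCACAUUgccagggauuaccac
hsa-miR-23a-3p: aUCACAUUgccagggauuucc
hsa-miR-27a-3p: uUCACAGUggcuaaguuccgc
hsa-miR-27b-3p: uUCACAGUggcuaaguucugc
The gene of hsa-miR-23b-3p lies on the plus strand at chr9:95085265-95085287, beside that of hsa-miR-27b-3p at chr9:95085505-95085525, and hsa-miR-27a-3p lies on the minus strand at chr19:13836447-13836467, beside hsa-miR-23a-3p at chr19:13836595-13836615. The seed of hsa-miR-23b-3p was shared by 3 RefSeq mature miRNAs, namely hsa-miR-23a-3p, hsa-miR-23b-3p and hsa-miR-23c. The seeds of hsa-miR-23b-3p and hsa-miR-27a-3p had 6 of 7 bases in common and differed by U7G, with the base of miR-23b given before the position, counted from 1 at the 5′ end, and that of miR-27a after it. The labels do not state which strand of a duplex carried the biotin, and the 3p strands are shown as the usual guides.

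All values below are the deposited log2 values, which ran from 7.18 to 15.2. The array medians ran only from 9.09 to 9.12, so that a change tells how a probe moved against the rest of its array. Folds are called apparent because a plain log2 and a variance-stabilizing scale could not be told apart, and the second understates the change of dim probes. Arrays of the same group correlated across probes at r between 0.977 and 0.984. Of 10 markers of HEK293T cells, which include neuronal ones, 8 had a named probe among the deposited values. Their lowest and highest values on the 8 arrays were 7.25 for KRT18 and 13.4 for VIM, with NEFL, NEFM and INA between 8.68 and 9.54. With both miRNAs CDH2 and LIN28B rose and KRT8 and KRT18 fell, and VIM fell with miR-27a. NEFL, NEFM and INA were called with neither miRNA. Of 16 markers of other cell types 2 had a named probe, CD68 between 8.25 and 9.50 and ALB between 7.78 and 8.57. Of these 2, 0 were called with miR-23b and 1, ALB, fell with miR-27a. On average over both miRNAs CD68 was called higher and ALB lower. Of all named genes 24.3% were called in either direction with miR-23b, 34.5% with miR-27a and 45.5% on average. The part of these markers in the SMAD changes was not tested. How far any probe lay above background is unknown. A change was called when the p-value of limma, adjusted by the Benjamini-Hochberg method over all 14479 probes, was under 0.05, and every adjusted p below is of this kind.

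The common partner SMAD4 and the measured SMADs of the bone morphogenetic protein branch, SMAD5 and SMAD9, rose in both pull-downs, by 0.53 to 0.71 on the log2 scale with miR-23b and by 0.79 to 1.05 with miR-27a, and SMAD7 rose by 0.46 ± 0.14 (SE) with miR-27a. SMAD2, SMAD3 and SMAD6 were called in neither comparison of the main fit, and no SMAD transcript was called lower. Every pull-down array of SMAD2 lay above every input array, with changes of 0.54 and 0.55. Both changes of SMAD2 were called higher in a fit that kept the replicate number as a block, so its place outside the called genes depends on the fit. Thus 3 of 7 SMAD probes were called higher with miR-23b, against 12.0% of all probes, and 4 of 7 with miR-27a, against 17.1% of all probes. The count with miR-23b was 0 to 2 when 1 array was left out and 1 with only the 4 arrays of that comparison, and that with miR-27a was 3 to 4 and 4. In both directions together, 24.3% of all probes were called with miR-23b and 34.3% with miR-27a. The SMAD members were chosen with earlier results of these data known, so the counts beside these shares are a description only.

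**Figure D1:**
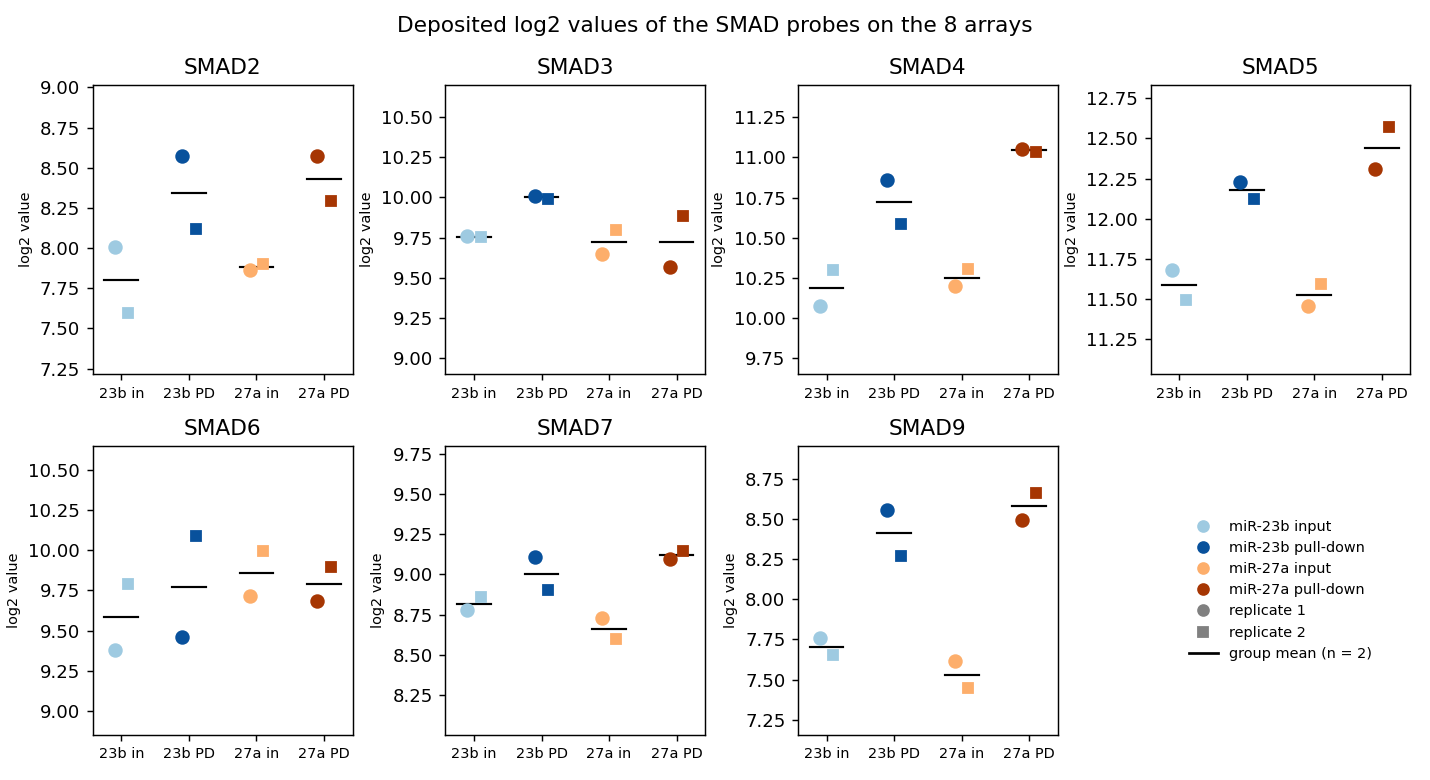
Deposited log2 value of each SMAD probe (y axis, a separate range of the same width in each panel) on the 8 arrays, by group (in, input; PD, pull-down), with circles for replicate 1, squares for replicate 2 and a bar at the group mean (n = 2). For SMAD2, SMAD4, SMAD5, SMAD7 and SMAD9 all 4 pull-down arrays lay above all 4 input arrays, and for SMAD3 and SMAD6 they did not.

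The receptor-regulated SMADs of the bone morphogenetic protein branch had the largest changes of the 7 SMAD probes in both comparisons. SMAD9, also known as SMAD8, read 8.56 and 8.27 in replicates 1 and 2 of the miR-23b pull-down and 7.76 and 7.65 in its input. With miR-27a it read 8.50 and 8.66 in the pull-down and 7.62 and 7.45 in the input. The lowest pull-down array thus lay 0.51 above the highest input array. Group levels were 8.41 ± 0.20 (SD, n = 2) against 7.70 ± 0.08 with miR-23b and 8.58 ± 0.12 against 7.53 ± 0.12 with miR-27a. The rise was 0.71 ± 0.15 (SE) with miR-23b, an apparent 1.63-fold (limma, adjusted p = 0.015), and 1.05 ± 0.15 with miR-27a, an apparent 2.07-fold (limma, adjusted p = 0.0025). These changes ranked 1244 and 841 from the top of the 14479 probes. The SMAD9 probe was dim, where the lowest value of any probe was 7.18. A filter that left out the lowest 25% of probes removed it, and how far it lay above background is unknown. The call with miR-23b was lost without replicate 2 of its input (limma, adjusted p = 0.085) or without replicate 1 of its pull-down (adjusted p = 0.071), whereas that with miR-27a was kept in 8 of 8 fits that left out 1 array.

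SMAD5, the other measured SMAD of this branch, also separated pull-downs from inputs. Replicates 1 and 2 read 12.23 and 12.12 in the miR-23b pull-down against 11.68 and 11.50 in the input. In the miR-27a pull-down they read 12.31 and 12.57 against 11.46 and 11.60 in the input. All 4 pull-down arrays were above all 4 input arrays, and the miR-27a pull-down arrays were above those of miR-23b. The means were 12.18 ± 0.08 (SD, n = 2) and 11.59 ± 0.13 with miR-23b, and 12.44 ± 0.19 and 11.53 ± 0.10 with miR-27a. SMAD5 rose by 0.59 ± 0.15 (SE) with miR-23b, an apparent 1.50-fold (limma, adjusted p = 0.028), and by 0.91 ± 0.15 with miR-27a, an apparent 1.88-fold (adjusted p = 0.0038). The miR-23b call was lost when any of the 4 arrays of that comparison was left out (limma, adjusted p between 0.056 and 0.15), and the miR-27a call was kept in 8 of 8 such fits.

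SMAD4, the common partner that all signalling branches share, was also higher in the pull-downs. In the miR-23b pull-down replicates 1 and 2 read 10.86 and 10.59, and in the input 10.08 and 10.30. The miR-27a pull-down read 11.05 and 11.03, and its input 10.20 and 10.30. The gap was wider and the spread smaller with miR-27a, where the means were 11.04 ± 0.02 (SD, n = 2) and 10.25 ± 0.07, than with miR-23b, where they were 10.72 ± 0.19 and 10.19 ± 0.16. SMAD4 rose by 0.53 ± 0.15 (SE) with miR-23b, an apparent 1.45-fold (limma, adjusted p = 0.038), and by 0.79 ± 0.15 with miR-27a, an apparent 1.73-fold (limma, adjusted p = 0.0064). Of the 8 fits that left out 1 array, the miR-23b call was kept only without replicate 2 of the miR-23b pull-down, with adjusted p between 0.058 and 0.17 in the others, and the miR-27a call was kept in all 8.

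SMAD2 and SMAD3, the SMADs of the TGF-beta and activin branch, were called with neither miRNA. SMAD2 read 8.57 and 8.12 in replicates 1 and 2 of the miR-23b pull-down and 8.01 and 7.60 in the input. With miR-27a it read 8.58 and 8.29 in the pull-down and 7.87 and 7.90 in the input. Every pull-down array exceeded every input array, but replicate 1 stood above replicate 2 by 0.28 to 0.45 in 3 of the 4 groups. The change was 0.54 ± 0.21 (SE) with miR-23b (limma, adjusted p = 0.096) and 0.55 ± 0.21 with miR-27a (adjusted p = 0.075), and neither was called. In a fit that kept the replicate number as a block, both were called higher (limma, adjusted p = 0.012 and 0.0088). This block fit allowed 1 shift between replicates 1 and 2 per probe, shared by all 4 groups. It brought the SMAD probes called higher to 4 of 7 with miR-23b, against 22.1% of all probes. With miR-27a it brought them to 5 of 7, against 24.2%.

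SMAD3, the DNA-binding partner of the same branch, read 10.01 and 9.99 in the miR-23b pull-down and 9.76 and 9.75 in its input. In the miR-27a pull-down it read 9.56 and 9.88, and in the input 9.65 and 9.80. The miR-23b arrays were separated, with an SD of 0.01 in each group, whereas the miR-27a pull-down arrays lay on either side of the inputs. The change was 0.24 ± 0.15 (SE) with miR-23b, with a 95% interval from -0.10 to 0.59 (limma, adjusted p = 0.27), and 0.00 ± 0.15 with miR-27a, with an interval from -0.34 to 0.35 (adjusted p = 0.99).

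The inhibitory SMADs limit the signal of the others. SMAD7, induced by and acting against TGF-beta, read 9.11 and 8.90 in the miR-23b pull-down and 8.78 and 8.86 in its input. With miR-27a it read 9.10 and 9.15 in the pull-down and 8.73 and 8.60 in the input. The margin was narrow with miR-23b, where replicate 2 of the pull-down exceeded the higher input array by 0.044. The change was 0.19 ± 0.14 (SE) with miR-23b (limma, adjusted p = 0.35) and 0.46 ± 0.14 with miR-27a, an apparent 1.37-fold (limma, adjusted p = 0.034). The miR-27a call was kept without either array of the miR-23b pull-down and lost in the other 6 fits that left out 1 array (adjusted p between 0.051 and 0.16).

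SMAD6, which mainly restrains the bone morphogenetic protein branch, read 9.46 and 10.09 in the miR-23b pull-down and 9.38 and 9.79 in its input. It read 9.68 and 9.89 in the miR-27a pull-down and 9.72 and 10.00 in its input. Pull-down and input arrays overlapped with both miRNAs, and replicate 2 stood above replicate 1 in all 4 groups, by 0.21 to 0.63. The change was 0.19 ± 0.24 (SE) with miR-23b, with a 95% interval from -0.37 to 0.74 (limma, adjusted p = 0.60), and -0.07 ± 0.24 with miR-27a, with an interval from -0.62 to 0.49 (adjusted p = 0.85).

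**Figure D2:**
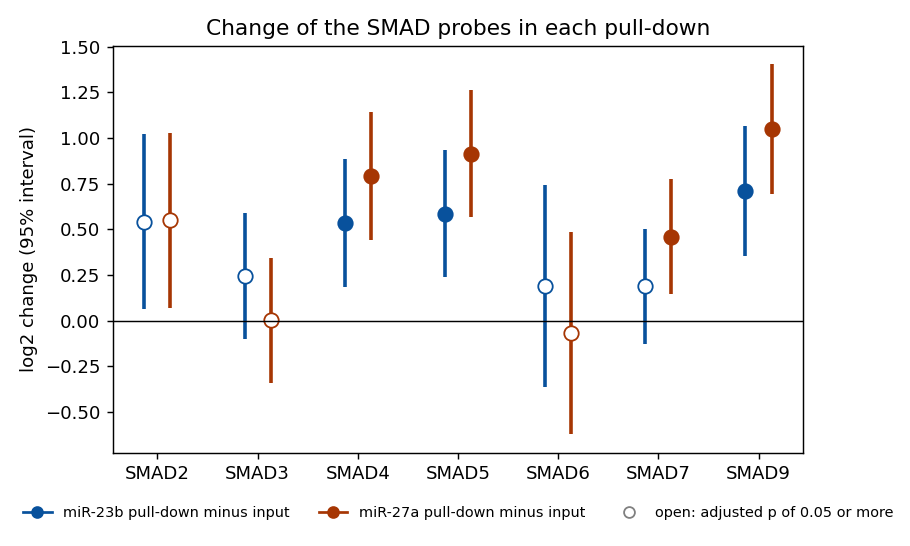
Log2 change of each SMAD probe (y axis) from input to pull-down with its 95% interval from the limma fit over 8 arrays, for miR-23b (blue) and miR-27a (brown), with filled points for an adjusted p under 0.05. Filled points are SMAD4, SMAD5 and SMAD9 with both miRNAs and SMAD7 with miR-27a, and the change of SMAD9 with miR-27a is 1.05.

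Within same-numbered arrays the change of SMAD9 was 0.80 and 0.62 for replicates 1 and 2 with miR-23b and 0.88 and 1.21 with miR-27a. That of SMAD5 was 0.55 and 0.63 with miR-23b and 0.85 and 0.98 with miR-27a. SMAD4 was less even with miR-23b than with miR-27a, at 0.78 and 0.29 with miR-23b and 0.85 and 0.73 with miR-27a. SMAD2, in contrast to its scattered levels, was even within replicates with miR-23b, at 0.56 and 0.52, and less so with miR-27a, at 0.71 and 0.39. Over the family, pull-down arrays lay above input arrays without overlap for 6 of 7 probes with miR-23b, against 29.9% of all probes, for 5 of 7 with miR-27a, against 31.5%, and for 5 of 7 over all 4 pull-down and 4 input arrays, against 19.5%.

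The average of the changes with both miRNAs, which set the 4 pull-down arrays against the 4 input arrays, gave a narrower error. SMAD9 rose by 0.88 ± 0.11 (SE; limma, adjusted p = 0.00062), SMAD5 by 0.75 ± 0.11 (adjusted p = 0.0011), SMAD4 by 0.66 ± 0.11 (adjusted p = 0.0019), SMAD2 by 0.55 ± 0.15 (adjusted p = 0.018) and SMAD7 by 0.32 ± 0.10 (adjusted p = 0.027). The averaged changes of SMAD3, 0.12 ± 0.11, and SMAD6, 0.06 ± 0.17, were not called (limma, adjusted p = 0.37 and 0.79). Hence 5 of 7 SMAD probes were called higher, against 21.9% of all probes, where 45.6% of all probes were called in either direction. The call of SMAD2 was lost without replicate 2 of the miR-23b input (limma, adjusted p = 0.058) or replicate 1 of the miR-27a pull-down (adjusted p = 0.063), that of SMAD7 was lost in 6 of 8 such fits (adjusted p up to 0.089), and those of SMAD4, SMAD5 and SMAD9 were kept in 8 of 8.

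**Figure D3:**
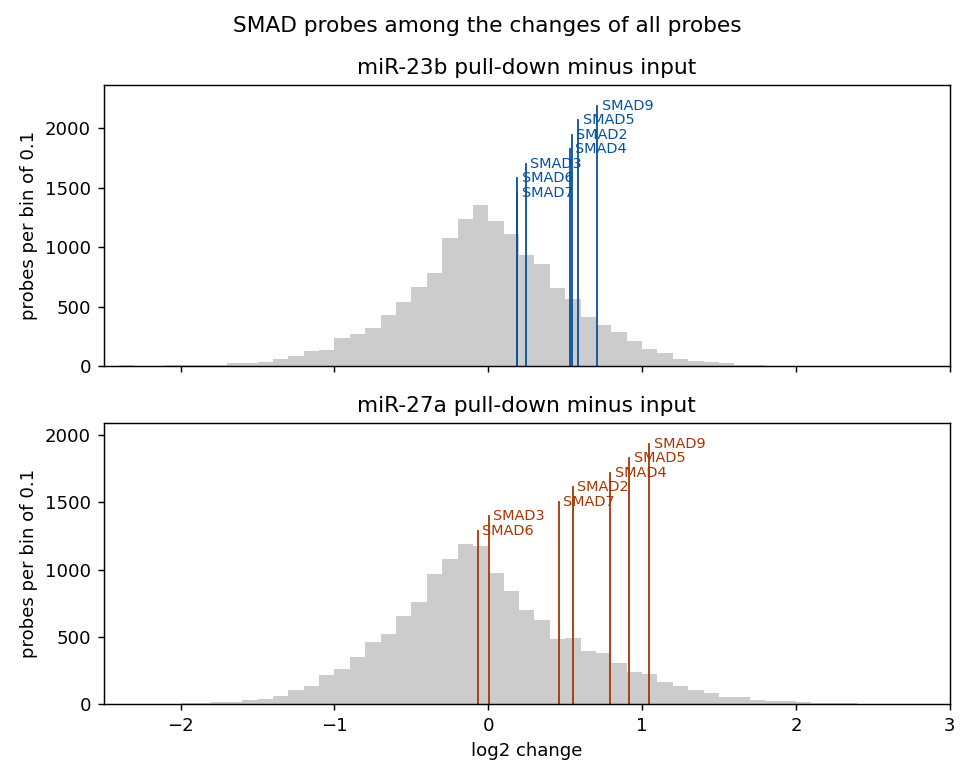
Number of probes (y axis) in bins of 0.1 of the log2 change from input to pull-down (x axis) for all 14479 probes in grey, with a line at the change of each SMAD probe, for miR-23b (top) and miR-27a (bottom). All 7 SMAD lines lie above 0 with miR-23b and 6 of 7 with miR-27a.

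The median change of the 7 SMAD probes was 0.53 with miR-23b, where the median of all probes was -0.02 and their quartiles -0.32 and 0.32. With miR-27a it was 0.55, where the median of all probes was -0.07 and the quartiles -0.41 and 0.34. Above the upper quartile lay 4 SMAD probes with miR-23b and 5 with miR-27a. The largest change of the family was that of SMAD9, at percentile 91.4 of all probe changes with miR-23b and 94.2 with miR-27a.

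Whether the miRNAs differed in the SMAD transcripts they were recovered with was tested as the difference between the changes. It was -0.34 ± 0.22 (SE) for SMAD9 (95% interval -0.84 to 0.16), -0.33 ± 0.21 for SMAD5 (-0.82 to 0.17), -0.26 ± 0.21 for SMAD4 (-0.75 to 0.24) and -0.27 ± 0.19 for SMAD7 (-0.72 to 0.17), with the change of miR-27a the larger in each. For SMAD3 it was 0.24 ± 0.21 (-0.24 to 0.73) and for SMAD6 0.26 ± 0.34 (-0.53 to 1.04), with the change of miR-23b the larger. SMAD2 had the closest changes, with a difference of -0.01 ± 0.29 (-0.68 to 0.67). By limma 0 of 7 SMAD probes were called, with adjusted p of 0.74 or more, and 0 with the replicate block. Of all probes 0.477% were called without the block and 4.24% with it. The intervals do not show that the miRNAs acted alike, since they allowed for differences of up to 0.84 for SMAD9 and 1.04 for SMAD6.

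The inputs of the differently transfected cells were compared with each other to see whether SMAD levels already differed before the beads. The input of miR-23b minus that of miR-27a was between -0.27 ± 0.24 (SE, SMAD6) and 0.17 ± 0.15 (SMAD9). By limma 0 of 7 SMAD probes were called at an adjusted p under 0.05, and 0 with the replicate block. At that threshold 0% of all probes were called in either fit, so these counts tell nothing about the SMAD probes in particular. The miR-23b input arrays lay above the miR-27a input arrays without overlap for SMAD7, by a mean of 0.15 ± 0.14, and for SMAD9, 2 of 7 SMAD probes against 10.1% of all probes, and in either direction the inputs did not overlap for 2 of 7 against 19.0% of all probes. A lower input with miR-27a makes the change with miR-27a larger, and its part in the differences between the miRNAs was not tested.

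Over the 8 arrays, which share 4 groups and the split into pull-downs and inputs, the profiles of SMAD4, SMAD5, SMAD7 and SMAD9 resembled each other, with r between 0.88 and 0.97, and SMAD2 correlated with these at 0.76 to 0.86. SMAD3 correlated with the other members at 0.18 to 0.36 and SMAD6 at -0.27 to 0.18. Among all genes, the profile closest to a SMAD gene was that of FNDC3A to SMAD5, with a root-mean-square difference of 0.038 on the log2 scale after centring and r = 1.00 over 8 arrays. The gene closest to SMAD9 was PAIP2 (0.060, r = 0.99), followed by LNX2 (0.067, r = 0.99). PIGK (0.063, r = 0.99) and OTUD6B (0.070, r = 0.98) were closest to SMAD4, and LMBRD1 (0.058, r = 0.98) and DSC3 (0.062, r = 0.98) to SMAD2. For SMAD7 they were WBP4 (0.066, r = 0.95) and MED13L (0.068, r = 0.94), for SMAD3 PPIL1 (0.054, r = 0.96) and BCDIN3D (0.062, r = 0.91), and for SMAD6 ESPNL (0.057, r = 0.97) and MED16 (0.080, r = 0.94). With 9535 genes and 8 arrays, such likeness is a description only.

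The other genes of the pathway were followed in 5 lists by their role towards the SMADs. Of these 138 genes 87 had a named probe among the deposited values. With miR-23b 18 of the 87 rose, 5 fell and 64 were not called, while 13.4% of all 9535 genes rose and 10.9% fell. With miR-27a 23 rose, 10 fell and 54 were not called, while 18.5% of all genes rose and 16.1% fell. In the block fit 43 and 51 of the 87 were called with miR-23b and miR-27a. The share of all genes called went from 24.3% to 44.7% and from 34.5% to 53.4%. Of all probes 22.1% and 24.2% were called higher in that fit. The lists were chosen with earlier results of these data known, so the counts are a description only. Calls that depended on single arrays are listed at the end, also where they are not marked below.

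Among the receptors that activate the SMADs, 4 of 8 measured genes rose and 0 fell with miR-23b (median change 0.56), beside 13.4% and 10.9% of all genes. With miR-27a 5 rose and 1 fell (median 0.94), beside 18.5% and 16.1%. In the block fit 6 rose and 1 fell with each, where 22.1% and 24.2% of all probes were called higher. In either direction 44.7% and 53.4% of all genes were called. ACVR2B, a type II activin receptor, rose by 1.11 ± 0.19 (SE) and 1.04 ± 0.19 with miR-23b and miR-27a (limma, adjusted p = 0.0071 and 0.0056). TGFBR3, a co-receptor for TGF-beta, rose by 1.01 ± 0.20 and 1.69 ± 0.20. BMPR2, the type II receptor of bone morphogenetic proteins, rose by 0.69 ± 0.18 and 1.09 ± 0.18. AMHR2, the receptor of anti-Müllerian hormone, fell by 1.29 ± 0.20 with miR-27a (limma, adjusted p = 0.0030). It changed by -0.58 ± 0.20 with miR-23b (adjusted p = 0.071, and 0.0036 in the block fit). For BMPR2 and TGFBR3 with miR-23b the calls were lost in 4 and 1 of the 8 fits without 1 array. TGFBR3 read 11.30 and 10.84 in the miR-23b pull-down and 11.27 and 11.16 in the miR-27a pull-down. Its inputs read 10.20 and 9.94 with miR-23b and 9.69 and 9.36 with miR-27a. The difference between its changes was -0.68 ± 0.28 (limma, adjusted p = 0.51), and the part of the inputs in it was not tested.

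The ligands and their extracellular regulators were mostly not called, with 2 of 14 measured genes higher and 1 lower in each comparison. Of all genes 13.4% rose and 10.9% fell with miR-23b, and 18.5% and 16.1% with miR-27a. In the block fit 5 rose and 3 fell with miR-23b and 4 and 2 with miR-27a. In that fit 44.7% and 53.4% of all genes were called in either direction. GDF11, a ligand of the SMAD2 and SMAD3 branch, rose by 1.17 ± 0.16 with miR-23b (limma, adjusted p = 0.0037). With miR-27a GDF11 changed by 0.43 ± 0.16 (adjusted p = 0.067, and 0.020 in the block fit). BMP7, a ligand of the SMAD5 and SMAD9 branch, fell by 0.87 ± 0.16 with miR-23b (adjusted p = 0.0086) and by 0.73 ± 0.16 with miR-27a (adjusted p = 0.010). TWSG1, which binds bone morphogenetic proteins, rose by 1.21 ± 0.25 with miR-27a (limma, adjusted p = 0.0094). It changed by 0.82 ± 0.25 with miR-23b (adjusted p = 0.051, and 0.0034 in the block fit). RGMA, a co-receptor for bone morphogenetic proteins, rose by 0.61 ± 0.17 with miR-23b (adjusted p = 0.038), a call lost in 6 of the 8 fits without 1 array. With miR-27a RGMA changed by -0.15 ± 0.17 (adjusted p = 0.55). The list medians were 0.08 with miR-23b and -0.14 with miR-27a, beside 0.02 and -0.04 over all genes.

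Of the proteins that anchor SMADs, move them in and out of the nucleus or act with them on DNA, 8 of 25 measured genes rose and 0 fell with miR-23b. With miR-27a 7 rose and 2 fell. Of all genes 13.4% rose and 10.9% fell with miR-23b, and 18.5% and 16.1% with miR-27a. In the block fit the list held 10 and 3, and 11 and 5, where 44.7% and 53.4% of all genes were called in either direction. TRIM33, which binds phosphorylated SMAD2 and SMAD3 and can ubiquitinate SMAD4, rose by 0.73 ± 0.13 and 0.96 ± 0.13 with miR-23b and miR-27a (limma, adjusted p = 0.0081 and 0.0020). The exportin XPO1, which carries SMAD4 out of the nucleus, rose by 0.94 ± 0.15 and 0.91 ± 0.15, and the nucleoporin NUP153, through which SMAD2 can pass, by 0.70 ± 0.16 and 1.00 ± 0.16. RANBP3, which helps to export SMAD2 and SMAD3, fell by 1.04 ± 0.18 with miR-27a (limma, adjusted p = 0.0042). So did ATF3, a transcription factor that binds SMAD3, by 0.47 ± 0.14 (adjusted p = 0.036), a call lost in 5 of the 8 fits without 1 array. With miR-23b RANBP3 changed by -0.26 ± 0.18 and ATF3 by -0.25 ± 0.14 (adjusted p = 0.31 and 0.23). The medians of the list were 0.08 and 0.10.

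Of the repressors and the enzymes that add or remove ubiquitin or phosphate on SMADs, 3 of 25 measured genes rose and 1 fell with miR-23b. With miR-27a 5 rose and 2 fell. Of all genes 13.4% rose and 10.9% fell with miR-23b, and 18.5% and 16.1% with miR-27a. In the block fit the list held 6 and 3, and 9 and 4, where 44.7% and 53.4% of all genes were called in either direction. LEMD3, an inner nuclear membrane protein that binds receptor-regulated SMADs and dampens their signal, rose by 1.48 ± 0.33 with miR-23b and 1.95 ± 0.33 with miR-27a (limma, adjusted p = 0.017 and 0.0042). USP9X, which removes ubiquitin from SMAD4, rose by 1.13 ± 0.20 and 0.68 ± 0.20, and NEDD4L, a ubiquitin ligase for activated SMAD2 and SMAD3, by 0.83 ± 0.15 and 0.91 ± 0.15. TGIF1, a repressor that binds SMAD2, fell by 0.44 ± 0.13 and 0.75 ± 0.13 (limma, adjusted p = 0.046 and 0.0048), and the call with miR-23b was kept in 0 of 8 fits without 1 array. STUB1, a ubiquitin ligase that acts on SMADs, fell by 0.48 ± 0.14 with miR-27a (limma, adjusted p = 0.028). This call and that of USP9X with miR-27a were each kept in 4 of the 8 fits. With miR-23b STUB1 changed by -0.43 ± 0.14 (adjusted p = 0.054, and 0.014 in the block fit).

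Among genes that SMADs regulate, 1 of 15 measured genes rose and 3 fell with miR-23b, and 4 rose and 4 fell with miR-27a. Of all genes 13.4% rose and 10.9% fell with miR-23b, and 18.5% and 16.1% with miR-27a. In the block fit the list held 2 and 4 with miR-23b and 4 and 5 with miR-27a. In that fit 44.7% and 53.4% of all genes were called in either direction. CCN2, a matricellular protein induced by TGF-beta, rose by 1.83 ± 0.28 and 1.47 ± 0.28 with miR-23b and miR-27a (limma, adjusted p = 0.0050 and 0.0062). COL4A1, a basement membrane collagen, rose by 0.81 ± 0.20 with miR-27a (adjusted p = 0.017). It changed by 0.54 ± 0.20 with miR-23b (adjusted p = 0.085, and 0.0066 in the block fit). ID1, an inhibitor of helix-loop-helix factors and a direct target of the bone morphogenetic protein branch, fell by 1.31 ± 0.12 and 0.96 ± 0.12 (limma, adjusted p = 0.0019 and 0.0017). HES1, a transcriptional repressor best known downstream of Notch, fell by 0.77 ± 0.14 and 0.49 ± 0.14, the second a call kept in 4 of the 8 fits without 1 array. ID2, a relative of ID1, fell by 0.95 ± 0.20 with miR-23b (adjusted p = 0.013). With miR-27a ID2 changed by -0.44 ± 0.20 (adjusted p = 0.12, and 0.019 in the block fit). ID3, the relative of ID1 and ID2, rose by 1.04 ± 0.18 with miR-27a (adjusted p = 0.0042). With miR-23b ID3 changed by -0.56 ± 0.18 (adjusted p = 0.055, and 0.019 in the block fit). These are amounts recovered relative to the input. Between the inputs of the miRNAs 0% of all probes were called, so the 0 calls among these 15 genes tell nothing about them in particular. The part of the inputs in their changes was not tested.

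**Figure D4:**
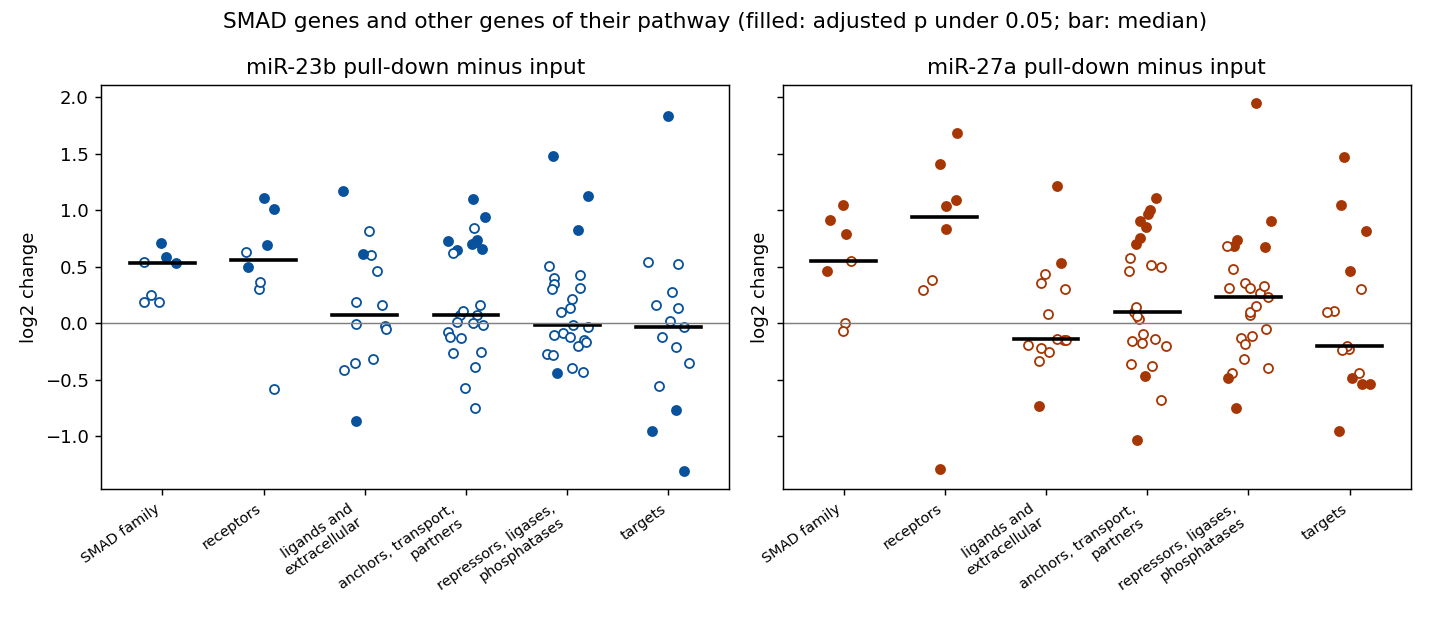
Log2 change from input to pull-down (y axis) of the 7 SMAD genes and the 87 measured genes of the 5 pathway lists (x axis), for miR-23b (left) and miR-27a (right), with 1 point a gene, filled for an adjusted p under 0.05, and a bar at the median of each list. The medians of the SMAD family are 0.53 and 0.55 and those of the receptors 0.56 and 0.94, while the medians of the other lists lie between -0.20 and 0.23.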

How the data were processed

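The deposited values were log2 values per probe, which the authors made from 1-colour Illumina arrays with lumi 2.2.1 per the submitters' processing notes. For transformation, normalization and probe filter the method is not given in the sources used here. A table of non-normalized signals was not used, as its 8 columns of signal and 8 of detection p match no sample, so no detection filter was applied, and the design's step for those signals was replaced by the deposited log2 values. Probes were named from the platform annotation: 12008 had 1 gene, 2 several and 2469 none. Current symbols were looked up in RefSeq (GRCh38.p14), and 0 changed. A gene with several probes was represented by its brightest, the one with the highest mean over all 8 arrays. Of the pathway genes named above, RANBP3 had 3 probes. BMPR2, GDF11, TWSG1, TRIM33, LEMD3, USP9X, TGIF1, STUB1, CCN2 and ID2 had 2 each. Their other probes are not reported here, so whether they changed alike is not shown.

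Groups were taken from the sample titles. Changes were tested with limma 3.58.1 in R 4.3.3 on 4 group means over 8 arrays (4 residual degrees of freedom, empirical Bayes, two-sided), with Benjamini-Hochberg adjustment over 14479 probes. The procedure was tested on simulated data with independent noise on each array and no shift between replicates. That test does not cover the correlated differences given next. Differences between replicates 2 and 1 correlated across probes at r between 0.34 and 0.80 for all 6 pairs of groups. The labels do not give a pairing by number, and the main fit did not use one. The replicate block was an alternative that assumes, from the data, 1 shift per probe between the replicates, shared by all 4 groups. It does not pair each pull-down with its own input within each miRNA. With it SMAD2 was called higher with both miRNAs (limma, adjusted p = 0.012 and 0.0088). Other alternatives were quantile normalization, a common array median, a filter on low values, a variance trend, each comparison's own 4 arrays and each array left out in turn.

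The SMAD members and the pathway lists were chosen with earlier results of these data known. All SMAD probes were named, and of each list up to 3 genes a direction with the smallest p among those called with either miRNA. Likeness was the root-mean-square difference of centred values over 8 arrays. The number of arrays limits the precision.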

Additional observations from a re-analysis of the deposited data

Results flagged for a closer look

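ID3, a target gene of SMAD signalling, was called in the test of the difference between the miRNAs. Its change with miR-23b minus that with miR-27a was -1.60 ± 0.25 (SE) on the log2 scale (limma, adjusted p = 0.049). Replicates 1 and 2 read 10.47 and 10.88 in the miR-23b pull-down against 11.19 and 11.28 in its input, and 12.50 and 12.19 in the miR-27a pull-down against 11.26 and 11.34 in its input, so that both arrays of the first pull-down lay below their inputs and both of the other above. The call was lost when any of the 8 arrays was left out (adjusted p between 0.080 and 0.23, differences between -1.81 and -1.40).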

How the results depend on the processing

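Of the alternatives run for the changes of single SMAD probes, 407 kept the direction and the side of the threshold, 32 lost the call, 3 gained one and 22 changed sign. With only the 4 arrays of the comparison, 1 SMAD probe was called with miR-23b, and leaving out 1 array gave 0 to 2 (0 without replicate 2 of the miR-23b input or replicate 1 of the miR-23b pull-down, 1 without replicate 1 of that input). With miR-27a leaving out 1 array gave 3 to 4 and for the average 3 to 5 (3 without replicate 2 of the miR-23b input or replicate 1 of the miR-27a pull-down). With their own 4 arrays SMAD4 and SMAD5 (miR-23b) and SMAD7 (miR-27a) were not called (limma, adjusted p = 0.10, 0.064 and 0.052), nor were SMAD4 (miR-23b) and SMAD7 (miR-27a) with a variance trend (0.059 and 0.055), while SMAD2 with miR-27a was called with its own 4 arrays (0.039). The replicate block raised the pathway genes called from 23 to 43 with miR-23b and from 33 to 51 with miR-27a, beside a rise from 24.3% to 44.7% and from 34.5% to 53.4% of all genes, and changed no SMAD call other than those of SMAD2. Leaving out 1 array gave 9 to 18 pathway genes with miR-23b (9 without replicate 2 of its input) and 18 to 35 with miR-27a (18 to 20 without any of its arrays).

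Signs changed in values that were not called. SMAD3 with miR-27a was -0.013 with a common array median, -0.041 with quantile normalization and -0.16 to 0.16 with 1 array left out. The difference of SMAD2 was 0.0083 with a common median and -0.23 to 0.22 with 1 array left out. With 1 array left out SMAD6 ranged from -0.13 to 0.50 with miR-23b, -0.21 to 0.072 with miR-27a, -0.10 to 0.22 on average and -0.059 to 0.57 in the difference, and between the inputs SMAD2 ranged from -0.29 to 0.12, SMAD3 from -0.040 to 0.11, SMAD4 from -0.17 to 0.047 and SMAD5 from -0.029 to 0.16. The causes were not tested.

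Of 39 called values of the 24 named pathway genes, 21 were kept whichever array was left out, an alternative chosen after seeing the data. The others were BMPR2, HES1, ID2, LEMD3, NEDD4L, NUP153, RGMA, TGFBR3, TGIF1 and TRIM33 with miR-23b, ATF3, BMP7, COL4A1, HES1, STUB1, TWSG1 and USP9X with miR-27a, and the difference of ID3. The filter that left out the lowest 25% of probes removed SMAD9, which has no value under it. A mean over the probes of a gene could not be tried, since each SMAD gene had 1 probe. Signal over background is unknown, which limits the dim probes of SMAD2 and SMAD9 most.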
